A study of Mus musculus with 8 samples.

Results

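The 10 genes described here encode proteins that act on collagen after its chains are translated. They were taken by symbol from the deposited count table, which lists 31910 genes, and all 10 are in it: the lysyl oxidases Lox, Loxl1, Loxl2 and Loxl3, the lysyl hydroxylases Plod1, Plod2 and Plod3, the prolyl hydroxylase subunit P4ha1, the collagen chaperone Serpinh1 and the propeptidase helper Pcolce. Their messenger RNA was measured by RNA sequencing in 8 mouse liver samples, 4 labelled with the vector AAV2/9-SA (SA 1 to SA 4) and 4 with AAV2/9-Ctrl (Ctrl 1 to Ctrl 4). AAV2/9 is an adeno-associated virus used to carry a gene into tissue. Per the series design, each mouse got 4.8e10 vector genomes through the tail vein after 7 weeks of feeding, and the design names a high-fat diet of 24 weeks, a diet high in fat and cholesterol with sugared water of 16 weeks that induces steatohepatitis (NASH, a fatty liver with inflammation), and normal chow. Which of these diets the sampled mice ate, their strain, sex and age, and the promoter in the vector are not given in the sources used here.

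Collagen chains are hydroxylated on prolines and lysines inside the endoplasmic reticulum, where hydroxyproline stabilises the triple helix and hydroxylysine later takes part in cross-links. A dedicated chaperone, Hsp47, encoded by Serpinh1, holds the folded procollagen until it leaves. Outside the cell the propeptides are cut off, and lysyl oxidases oxidise lysine and hydroxylysine side chains, which then join neighbouring molecules. In scarred liver these steps take place mainly around hepatic stellate cells and portal fibroblasts, and cross-linking is known to make scar collagen stiffer and harder to degrade.

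Levels are given in CPM, the counts of a gene per 1e6 counts of its library after TMM scaling, and the plot of CPM by library shows the outcome for each gene. In the SA libraries Serpinh1, Lox and Plod2 lay below every Ctrl library, Loxl1 and Loxl2 averaged 2.92 and 2.56 CPM in SA against 6.98 and 6.31 CPM in Ctrl but with overlapping libraries, and Plod1, Plod3, P4ha1 and Loxl3 had close to equal averages in both groups. None of the 10 genes passed edgeR's quasi-likelihood test at a Benjamini-Hochberg adjusted p under 0.05, where 0.0162% of the 12358 tested genes passed in either direction. Of the 10 genes, 5 had an unadjusted p under 0.05 and were lower in SA, against 3.29% of all tested genes. For 3 of the 10, every SA library was below every Ctrl library, against 1.46% of all tested genes. With DESeq2, Lox and Serpinh1 passed, both lower in SA, as did 0.213% of the 17359 genes that had an adjusted p there. A negative log2 fold change (SA over Ctrl) was found for 9 of the 10 genes, against 51.3% of all tested genes, and the median was -0.78, against -0.00734 over all tested genes. Lox entered the edgeR test only through its counts in Ctrl, since no SA library reached 10 counts, so its difference there is in part a condition of being tested. The DESeq2 fit had no such minimum count.

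**Figure D1:**
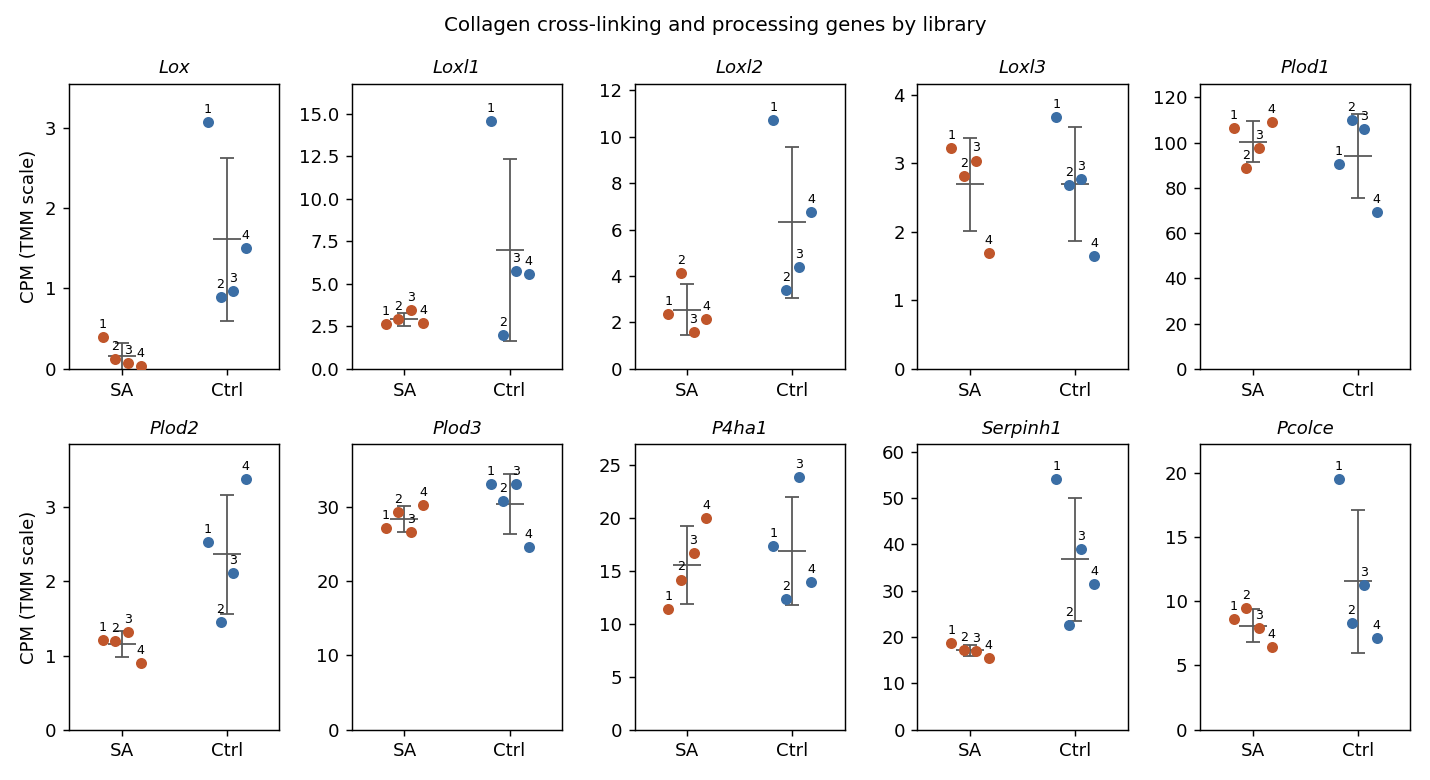
Level of each of the 10 genes in CPM (TMM scale, vertical axes from 0) in the 4 SA and 4 Ctrl libraries. Points are libraries labelled by replicate number, horizontal bars are means and whiskers 1 SD (n = 4); the groups do not overlap for Lox, Plod2 and Serpinh1.

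Sequencing depth was 14114145 to 15922829 counts in 7 libraries and 28184001 in SA 4, and 1 count was worth 0.0362 to 0.0718 CPM. Hepatocyte genes dominated as the tissue label says, with Alb at 42730 to 66640 CPM in SA and 47990 to 76460 CPM in Ctrl. Ctrl 1 stood apart for the collagen-processing genes: the median of their log2 deviations from the mean of the 8 libraries was 0.842 there and -0.121 to 0.323 in the other Ctrl libraries, against -0.611 to -0.135 in SA. Ctrl 4 had 9.23% of its counts in mitochondrially encoded genes and the other libraries 3.55% to 4.87%.

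Regulatory sequence is shown for a pair of genes with different outcomes, Serpinh1, whose libraries separated, and P4ha1, whose libraries did not. The 250 bases before the RefSeq gene start are printed 5′ to 3′ on the gene's strand, from RefSeq on build GRCm38.p6, chr7:99353240-99353489 (minus strand) for Serpinh1 and chr10:59323046-59323295 (plus strand) for P4ha1. Capitals mark the GC box GGGCGG and the hypoxia response core ACGTG on either strand.
Serpinh1: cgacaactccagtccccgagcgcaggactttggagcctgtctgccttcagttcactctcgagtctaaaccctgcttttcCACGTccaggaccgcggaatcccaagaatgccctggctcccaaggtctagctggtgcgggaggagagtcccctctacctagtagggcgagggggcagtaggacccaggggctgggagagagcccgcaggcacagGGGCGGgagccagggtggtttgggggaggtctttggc
P4ha1: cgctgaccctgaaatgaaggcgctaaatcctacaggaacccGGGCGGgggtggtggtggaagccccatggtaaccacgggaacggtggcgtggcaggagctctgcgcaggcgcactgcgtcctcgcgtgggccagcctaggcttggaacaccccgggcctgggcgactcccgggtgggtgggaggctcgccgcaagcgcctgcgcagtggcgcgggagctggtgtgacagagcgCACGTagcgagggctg

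Each of these windows held 1 GC box and 1 hypoxia core in the form ACGTG, the only form searched. Promoter entries matched 5 of the 10 genes (Serpinh1, P4ha1, Plod1, Plod3 and Pcolce), and the motifs occurred together in Serpinh1 and P4ha1 alone. Plod1 and Pcolce held a GC box without the hypoxia core, and Plod3 the hypoxia core without a GC box. The share of all promoters that hold both motifs was not determined. In windows of the same length, 32.7% of 32851 promoters held the GC box and 16.6% the hypoxia core, and the 2 motifs do not overlap in letters. These are matches of letters and nothing was measured about binding.

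Serpinh1 had even levels in SA and wide ones in Ctrl. Serpinh1 had 18.6, 17.3, 16.9 and 15.6 CPM in SA 1 to SA 4, against 54.0, 22.6, 38.9 and 31.5 CPM in Ctrl 1 to Ctrl 4. The SA libraries lay within a narrow band, all under the lowest Ctrl library, while Ctrl libraries differed among themselves by more than the gap between the groups. Its log2 fold change was -1.11 ± 0.22 (SE), with an adjusted p of 0.227 by edgeR and 0.00330 by DESeq2. Without Ctrl 1 it was -0.867 (edgeR, adjusted p = 0.466), and over the omission of each library it ranged from -1.28 to -0.867. The counts behind these levels were 244 to 430 in SA and 328 to 792 in Ctrl.

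Among the lysyl oxidases, Lox, the founding member of the family, which acts on both collagen and elastin, was close to the limit of detection in the SA libraries. It had 6, 2, 1 and 1 counts in SA 1 to SA 4 (0.402, 0.125, 0.0692 and 0.0362 CPM), against 45, 13, 16 and 21 counts in Ctrl 1 to Ctrl 4 (3.07, 0.896, 0.966 and 1.51 CPM). Every SA library was below every Ctrl library, and 3 of the SA libraries held fewer than 3 counts. A level of 3 counts, taken as the limit of detection, corresponded to 0.108 to 0.215 CPM per library and covers counting error only. The log2 fold change was -3.42 ± 0.67 (SE), with an adjusted p of 0.227 by edgeR and 0.00330 by DESeq2. That ratio is a fitted value that rests on few SA counts. It was -2.90 without Ctrl 1 (edgeR, adjusted p = 0.558) and -4.37 without SA 1, where Lox passed the test at the edge of the threshold (edgeR, adjusted p = 0.04997).

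Loxl1, which is best known for cross-linking elastin, was even across the SA libraries and uneven across the Ctrl libraries. It had 2.62, 2.94, 3.46 and 2.68 CPM in SA 1 to SA 4, against 14.6, 2.0, 5.73 and 5.60 CPM in Ctrl 1 to Ctrl 4. Ctrl 2 was below all SA libraries and Ctrl 1 far above all others. Its log2 fold change of -1.26 ± 0.45 (SE, with an adjusted p of 0.621 by edgeR) became -0.611 without Ctrl 1 and -1.56 without Ctrl 2.

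Loxl2, which oxidises collagen IV and promotes fibrosis in mouse liver, had 2.35, 4.13, 1.59 and 2.17 CPM in SA 1 to SA 4. In Ctrl 1 to Ctrl 4 it had 10.7, 3.38, 4.41 and 6.75 CPM. Only SA 2 reached into the Ctrl range, above Ctrl 2. The log2 fold change was -1.30 ± 0.39 (SE, with an adjusted p of 0.489 by edgeR), and -0.922 without Ctrl 1. The antisense gene model Gm27177 overlaps 5.57% of its exon bases.

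Loxl3, a lysyl oxidase needed for development of palate and spine in mice, did not follow its relatives. It had 3.22, 2.82, 3.04 and 1.70 CPM in SA 1 to SA 4, against 3.69, 2.69, 2.78 and 1.65 CPM in Ctrl 1 to Ctrl 4. The groups covered the same range, with a log2 fold change of -0.02 ± 0.32 (SE, with an adjusted p of 0.996 by edgeR). Its sign turned positive without Ctrl 1 (0.157), without SA 4 (0.154) and with the replicate number as a block (0.00947). In GENCODE vM21, 11.6% of the exon bases of Loxl3 overlap exons of Htra2 on the other strand, and the labels do not say that the libraries keep strand, so reads there cannot be assigned with certainty.

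The lysyl hydroxylases differed among themselves. Plod2, which hydroxylates lysines of the collagen telopeptides and so sets the kind of cross-link found in scar tissue, had 18, 19, 19 and 25 counts in SA 1 to SA 4 (1.21, 1.19, 1.31 and 0.904 CPM). In Ctrl 1 to Ctrl 4 it had 37, 21, 35 and 47 counts (2.53, 1.45, 2.11 and 3.37 CPM). The groups did not overlap, but Ctrl 2 was only just above the highest SA library. The log2 fold change was -1.04 ± 0.34 (SE, with an adjusted p of 0.558 by edgeR), and it stayed between -1.21 and -0.83 when any library was left out. The gene model Gm38391 on the opposite strand overlaps 6.42% of the Plod2 exon bases.

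Plod1, a lysyl hydroxylase of the helical part of collagen, had 106.6, 88.7, 97.7 and 109.0 CPM in SA 1 to SA 4. Its Ctrl 1 to Ctrl 4 libraries had 90.5, 110.1, 106.1 and 69.5 CPM. The ranges coincided apart from a low Ctrl 4, and the log2 fold change was 0.10 ± 0.16 (SE, with an adjusted p of 0.996 by edgeR), or -0.0318 without Ctrl 4. Plod3, which also transfers sugars onto hydroxylysine, had 27.2, 29.3, 26.6 and 30.3 CPM in SA 1 to SA 4, against 33.2, 30.8, 33.1 and 24.6 CPM in Ctrl 1 to Ctrl 4, where the first 3 were above all SA libraries and the last below them. Its log2 fold change was -0.10 ± 0.14 (SE, with an adjusted p of 0.996 by edgeR), and 11.7% of its exon bases overlap Znhit1 on the opposite strand.

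P4ha1, the catalytic subunit of a prolyl 4-hydroxylase, had 11.4, 14.2, 16.7 and 20.0 CPM in SA 1 to SA 4, against 17.3, 12.3, 23.9 and 14.0 CPM in Ctrl 1 to Ctrl 4. The libraries of both groups were interleaved, with a log2 fold change of -0.12 ± 0.23 (SE, with an adjusted p of 0.996 by edgeR), which turned to 0.101 without Ctrl 3 and 0.00824 without SA 1. The deposited FPKM values ordered its libraries differently. There P4ha1 had 2.72, 1.12, 1.60 and 1.25 FPKM in SA 1 to SA 4 and 2.53, 0.803, 2.61 and 4.64 FPKM in Ctrl 1 to Ctrl 4, so that Ctrl 4 was highest by FPKM and only the sixth highest by CPM.

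Pcolce, which speeds up the removal of the procollagen C-propeptide by BMP1-type proteinases, had 8.58, 9.45, 7.95 and 6.40 CPM in SA 1 to SA 4. In Ctrl 1 to Ctrl 4 it had 19.5, 8.27, 11.3 and 7.11 CPM. Ctrl 2 and Ctrl 4 lay inside the SA range, and the log2 fold change of -0.52 ± 0.29 (SE, with an adjusted p of 0.926 by edgeR) was -0.148 without Ctrl 1.

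**Figure D2:**
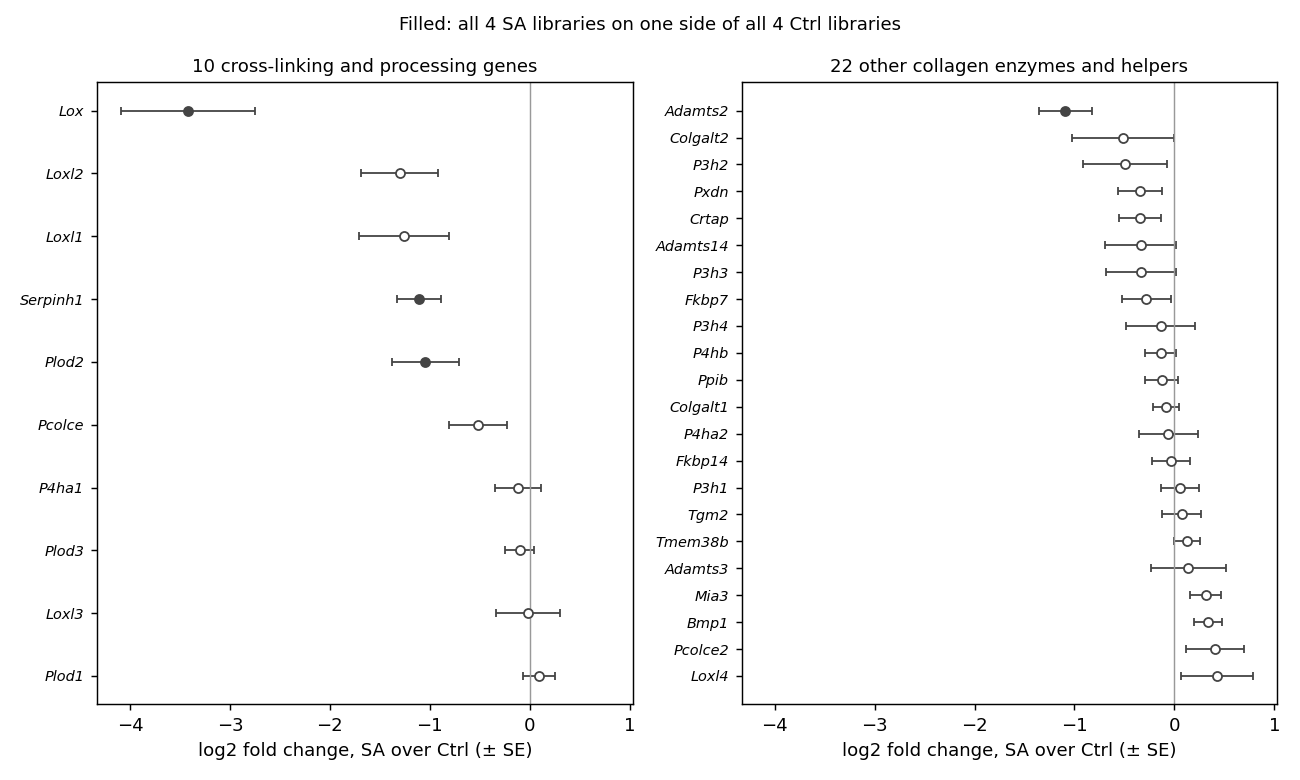
Log2 fold change of SA over Ctrl (horizontal axis) with its SE from the edgeR fit, for the 10 genes (left) and for the 22 tested genes among 26 other collagen enzymes and helpers (right). Filled points are genes whose 4 SA libraries all lie on one side of the 4 Ctrl libraries; the values run from -3.42 for Lox to 0.10 for Plod1 on the left.

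Set on a per-length scale (CPM per kilobase of merged exons in GENCODE vM21), the order of levels in SA was Plod1 (14.9 ± 1.37), Serpinh1 (6.99 ± 0.522), Plod3 (6.27 ± 0.384), P4ha1 (3.78 ± 0.888), Pcolce (2.12 ± 0.336), Loxl1 (0.886 ± 0.116), Loxl3 (0.585 ± 0.148), Loxl2 (0.473 ± 0.203), Plod2 (0.214 ± 0.0325) and Lox (0.0331 ± 0.0349; mean ± SD, n = 4 for each). Of the neighbours in that order, Serpinh1 and Plod3 overlapped in their libraries, as did Loxl3 and Loxl2. In Ctrl, Serpinh1 led at 15.1 ± 5.45, with Plod1 next at 13.9 ± 2.72 and Plod3 at 6.73 ± 0.898 (SD, n = 4). There every pair of neighbours overlapped except Plod1 and Plod3. Serpinh1 and Plod1 thus overlapped in Ctrl, while in SA every Serpinh1 library was below every Plod1 library.

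The 5 genes with an unadjusted p under 0.05 also resembled each other library by library. After each gene's log2 CPM was centred and divided by its SD over the 8 libraries, the root mean square distance was 0.41 to 0.739 within the 10 pairs formed by Lox, Loxl1, Loxl2, Plod2 and Serpinh1. It was 0.601 to 1.72 over the other 35 pairs, while profiles with no correlation lie at 1.32. The difference between the groups enters these distances, so the closeness of the 5 is a description of the same values and not a separate result. Ctrl 1 was highest of the 8 for Lox, Loxl1, Loxl2, Serpinh1, Loxl3, Pcolce and, by a small margin, Plod3, and Ctrl 2 was the lowest Ctrl library for Lox, Loxl1, Loxl2, Plod2, Serpinh1 and P4ha1.

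**Figure D3:**
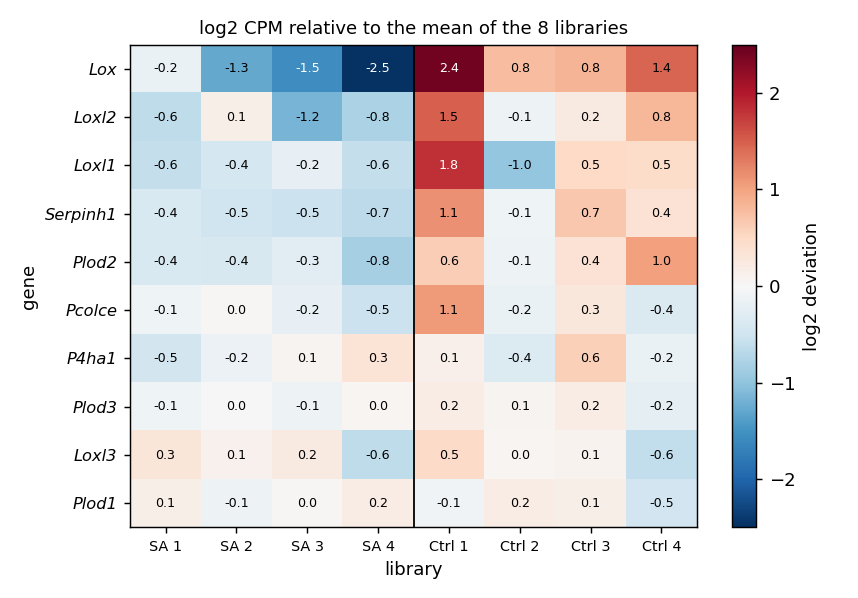
Log2 CPM of each gene (rows, ordered by log2 fold change) relative to its mean over the 8 libraries, with SA libraries left of the line and Ctrl libraries right of it. Colour and number give the log2 deviation. Lox spans -2.48 in SA 4 to 2.41 in Ctrl 1, while Plod3 stays between -0.25 and 0.18. SA 3 and the deeper SA 4 both held 1 Lox count, at -1.54 and -2.48.

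The 5 genes nearest to Lox by the same distance were Kdelr3 (0.156), Aqp7 (0.232), Tgfbi (0.233), Atg12 (0.26) and Fads3 (0.298). Kdelr3, a receptor that returns proteins to the endoplasmic reticulum, had 0.604, 0.501, 0.415 and 0.289 CPM in SA 1 to SA 4, against 2.12, 1.24, 1.21 and 1.22 CPM in Ctrl 1 to Ctrl 4. For Aqp7, an aquaglyceroporin, the counts were as few as those of Lox, at 2 to 4 in SA and 14 to 55 in Ctrl. Tgfbi, a secreted matrix protein, had a log2 fold change of -0.34 and Fads3, of the fatty acid desaturase family, -1.28 (edgeR, adjusted p = 0.662 and 0.0819). With DESeq2, Fads3 passed at an adjusted p of 3.075e-05 and Aqp7 at 0.000374, and both also passed in edgeR with no low-count filter (adjusted p = 0.0120 for Fads3 and 0.0265 for Aqp7). Nearest to Serpinh1 were Ppp2r2d (0.21), Sparc (0.242), Col5a2 (0.245), Plau (0.251) and Cpz (0.251). Sparc, a collagen-binding matricellular protein, had 56.8 to 71.8 CPM in SA and 63.8 to 138.7 CPM in Ctrl, and Col5a2, a chain of collagen V, had 4.38 to 5.30 CPM in SA and 6.21 to 23.8 CPM in Ctrl. The likeness was measured over 8 libraries, of which Ctrl 1 was the highest for each of these genes. The difference between the groups enters these distances, so a group difference in the neighbours was selected for and is not a separate result. Kdelr3, with 6 to 9 counts in SA, and Aqp7 entered the edgeR test only through their counts in Ctrl, like Lox. The count of 2 added before taking logs was not scaled to depth. Genes with few counts, such as Lox, Kdelr3 and Aqp7, thus read lower in the deeper SA 4. How far this shaped their closeness was not tested.

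Values of the collagen substrates were of a similar size. Of 10 listed chains of collagens I, III, IV, V and VI, all had a negative log2 fold change and 9 had an unadjusted p under 0.05, with a median of -1.08 and none past the threshold (edgeR). Among all tested genes, 51.3% had a negative value and 3.29% were lower with an unadjusted p under 0.05 (edgeR). Col1a1 had -2.04 ± 0.51, Col3a1 -1.58 ± 0.36, Col1a2 -1.47 ± 0.42 and Col5a2 -1.36 ± 0.35 (SE), and of these Col5a2 passed with DESeq2 (adjusted p = 0.0280). Without Ctrl 1 they had -1.42, -1.10, -0.965 and -0.831 in the same order. The summed level of the 10 chains was 154 to 257.3 CPM in SA and 199.6 to 782.8 CPM in Ctrl, highest in Ctrl 1. Listed genes of elastic fibres, the other substrate of lysyl oxidases, were all negative (7 of 7, median -0.71), and 3 had an unadjusted p under 0.05. Among them Fbln2, a matrix fibulin, had 2.06 to 3.50 CPM in SA and 4.24 to 10.2 CPM in Ctrl, with no overlap, and a log2 fold change of -1.14. The fibulins Fbln5 and Efemp2, which help lysyl oxidases to elastin, had -1.30 and -0.71, and elastin itself (Eln) -0.79 (edgeR, adjusted p = 0.459 for Fbln2, 0.480 for Fbln5, 0.695 for Efemp2 and 0.865 for Eln). Without Ctrl 1, Efemp2 had -0.429 and Eln -0.369.

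The counts were also set against those of the fibrillar collagen substrate. Per 1000 counts of Col1a1, Col1a2 and Col3a1 together, Lox had 0.527 to 3.79 counts in SA and 5.30 to 10.7 counts in Ctrl, with no overlap. The SA ratios of Lox rest on the 1 to 6 Lox counts per library given above, and Lox was tested in edgeR only through its Ctrl counts. How often other genes separate on this scale was not determined. Serpinh1 had 175 to 258 per 1000 in SA and 111 to 270 per 1000 in Ctrl, with medians of 219 and 175, so its ranges overlapped fully on this scale. Likewise Loxl2 had 19.9 to 61.6 in SA and 22.0 to 40.4 in Ctrl, and Plod2 11.4 to 17.7 in SA and 5.18 to 17.3 in Ctrl. Plod1 had 1000 to 1590 per 1000 in SA and 186 to 1320 per 1000 in Ctrl, with medians of 1270 and 449. These ratios describe counts within a library, their denominators were 1071 to 1897 counts in SA and 1214 to 7142 counts in Ctrl, and no test was made of them.

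**Figure D4:**
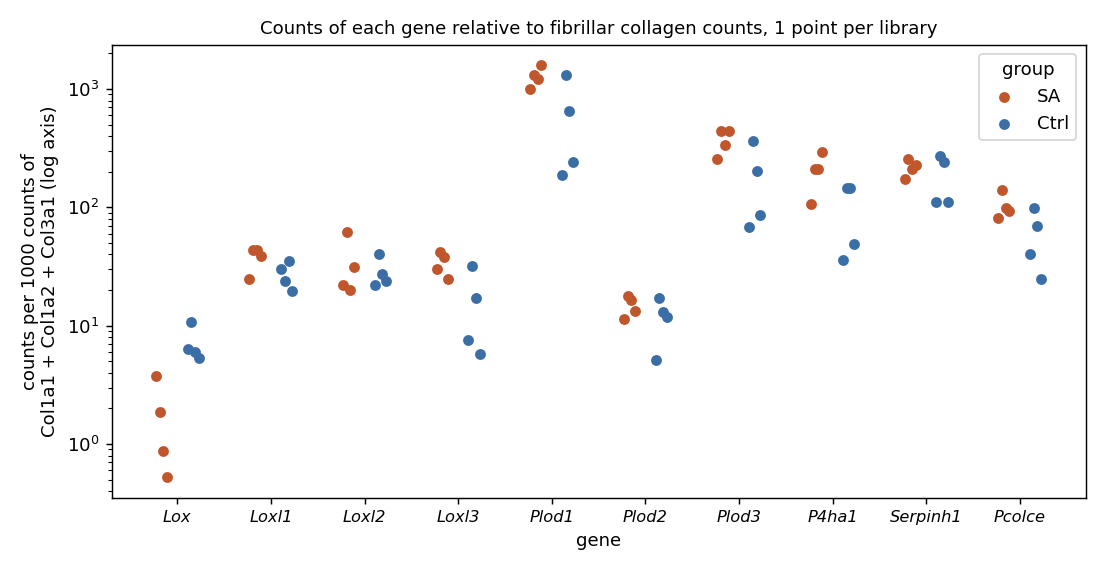
Counts of each gene per 1000 counts of Col1a1, Col1a2 and Col3a1 in the same library (log axis), 1 point per library, SA left of Ctrl. Lox lies at 0.527 to 3.79 in SA and 5.30 to 10.7 in Ctrl, on 1 to 6 Lox counts per SA library. How often other genes separate on this scale was not determined.

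Most other enzymes and helpers of collagen maturation had values nearer to the median of all genes. Of 26 listed genes 22 were tested, 14 with a negative and 8 with a positive log2 fold change, with a median of -0.10, and none passed with edgeR. Of all tested genes, 51.3% had a negative value. The procollagen N-proteinase Adamts2 had 8.05, 7.32, 8.30 and 6.29 CPM in SA 1 to SA 4, against 21.6, 8.48, 13.6 and 20.1 CPM in Ctrl 1 to Ctrl 4. All SA libraries of Adamts2 were below Ctrl, by a small margin in Ctrl 2, and its log2 fold change was -1.09 ± 0.26 (SE), with an adjusted p of 0.342 by edgeR and 0.0223 by DESeq2. Bmp1, the C-proteinase that Pcolce assists, was at 124.9 ± 8.30 CPM in SA and 99.0 ± 14.2 CPM in Ctrl (SD, n = 4), which gave 0.34 ± 0.14 as the log2 fold change (SE, with an adjusted p of 0.743 by edgeR). Mia3, which loads procollagen into transport carriers, had 0.32, and Crtap, a partner of prolyl 3-hydroxylase, -0.35. P4hb, the shared subunit of prolyl 4-hydroxylases, had -0.14, and the lysyl oxidase Loxl4 had 0.43 at 1.41 to 2.21 CPM in SA and 0.682 to 1.87 CPM in Ctrl (edgeR, adjusted p = 0.996 for both genes). P4hb and Loxl4 were chosen after their values were seen.

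Lox, Plod2 and P4ha1 are known targets of the hypoxia-inducible factor HIF, and Serpinh1 of heat shock factor. Of 12 other HIF targets, 9 were tested, 6 negative, with a median of -0.05. Egln3, an oxygen-sensing prolyl hydroxylase, had 20.5 to 27.5 CPM in SA and 31.1 to 37.0 CPM in Ctrl, with no overlap (log2 fold change -0.45, adjusted p = 0.533 by edgeR). Vegfa had 0.27, Ndrg1 -0.36 and Pdk1 -0.18, and Adm is listed at 0 in all 8 libraries. Chaperones of the endoplasmic reticulum were negative in 9 of 10 cases, with a median of -0.11, while 51.3% of all tested genes were negative. The chaperone Hspa5 had -0.33, with 504.1 to 643.8 CPM in SA and 652.0 to 808.6 CPM in Ctrl, and Pdia3 had -0.17, Canx -0.14 and Hsp90b1 -0.13 (edgeR, adjusted p = 0.797 or more for all 4). With the FPKM table the sign of Ndrg1 and of Hspa5 turned positive. For Hspa5 this rested on Ctrl 4, which had 56.3 FPKM but 652.0 CPM. Ctrl 1 to Ctrl 3 had 175.7 to 258.3 FPKM, above the 134.0 to 169.0 FPKM in SA.

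Markers of the liver cell types that can make these proteins were read in the same libraries. For comparison, 51.3% of all tested genes had a negative log2 fold change, and 3.29% were lower with an unadjusted p under 0.05 (edgeR). Of 13 hepatic stellate cell markers 10 were tested, all with a negative log2 fold change, 4 with an unadjusted p under 0.05 and none past the threshold (edgeR). Their summed level was 277.8 to 336.3 CPM in SA and 329.6 to 555.0 CPM in Ctrl, and Lrat is listed at 0 in all 8 libraries of the count table. The deposited FPKM table gives Lrat 6.06 to 7.91 FPKM in SA and 6.10 to 11.4 FPKM in Ctrl, so its zeros belong to the count table alone. Other untested markers, chosen after their values were seen, also had few counts beside higher FPKM. Over the 8 libraries Tagln had 2 to 15 counts and 2.38 to 23.95 FPKM, and Hand2 0 to 4 counts and 2.89 to 6.15 FPKM. The endothelial marker Clec4g had 0 to 8 counts and 0.267 to 81.8 FPKM. Acta2, the actin of activated stellate cells, had 1.41 to 2.01 CPM in SA and 2.41 to 11.2 CPM in Ctrl, and Dcn, a small proteoglycan, 147.9 to 162.9 CPM in SA and 178.1 to 329.4 CPM in Ctrl. Pdgfrb, a growth factor receptor of these cells, had a log2 fold change of -0.75. Without Ctrl 1 it was -0.362 for Pdgfrb, and for Acta2 it was -0.855 in place of -1.57. Cygb, a stellate cell marker chosen after its values were seen, had 10.7 to 15.5 CPM in SA. It had 24.6 CPM in Ctrl 1 and 6.83 to 10.3 CPM in Ctrl 2 to Ctrl 4, so its negative sign rested on Ctrl 1. Of 8 portal fibroblast markers only 4 were tested, with sums of 51.9 to 68.2 CPM in SA and 32.3 to 73.2 CPM in Ctrl. Of these 4, 2 were negative and 2 positive, and 1 had an unadjusted p under 0.05 (edgeR) and was lower. Gas6, chosen after its values were seen, made up most of the portal fibroblast sum in every library. It had 46.2 to 60.9 CPM in SA and 24.8 to 61.1 CPM in Ctrl, with a log2 fold change of 0.27. Bile duct markers summed to 38.4 to 66.0 CPM in SA and 35.9 to 134.3 CPM in Ctrl (6 of 7 tested, 5 negative, median log2 fold change -0.952, 3 with an unadjusted p under 0.05 and lower). These 3 were Krt19 at -1.26, Epcam at -1.06 and Spp1 at -0.89, and without Ctrl 1 they had -0.665, -0.982 and -0.535. Endothelial markers summed to 158.8 to 250.9 CPM in SA and 203.6 to 252.6 CPM in Ctrl. Of these, 6 of 7 were tested, 3 were negative, and 1 had an unadjusted p under 0.05 (edgeR) and was lower. Macrophage markers summed to 312.2 to 420.6 CPM in SA and 222.9 to 381.5 CPM in Ctrl (9 of 9 tested, 4 negative). Of the macrophage markers, 3 had an unadjusted p under 0.05 (edgeR) and were lower, and 1 was higher. Gpnmb, a glycoprotein of lipid-laden macrophages, had 3.42, 2.82, 3.60 and 2.60 CPM in SA 1 to SA 4, against 52.8, 4.55, 11.8 and 25.3 CPM in Ctrl 1 to Ctrl 4. All SA libraries of Gpnmb were below Ctrl, and its log2 fold change was -2.93, with an adjusted p of 0.227 by edgeR and 0.0132 by DESeq2, and -2.16 without Ctrl 1. Ccr2, a chemokine receptor of monocytes, had -1.43 and Trem2, a lipid receptor of macrophages, -1.24, and without Ctrl 1 they had -0.934 and -0.259. Timd4, a marker of resident Kupffer cells, had 0.71 (edgeR, adjusted p = 0.480 for Ccr2, 0.777 for Trem2 and 0.732 for Timd4). Hepatocyte markers summed to 64720 to 90920 CPM in SA and 74290 to 102500 CPM in Ctrl (7 of 7 tested, 3 negative), and Hnf4a, a transcription factor of hepatocytes, was above Ctrl in all SA libraries by a small margin over Ctrl 3, with 0.61 on the log2 scale and an adjusted p of 0.425 by edgeR. The part of any of these cell types in the values of the collagen-processing genes was not tested. In whole liver fewer cells of a type cannot be told apart from less RNA per cell.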

How the data were processed

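Per the labels' protocols, frozen liver gave the RNA and a NEBNext Ultra kit, not called strand-specific there, the libraries. The deposited count table holds whole-number counts per gene with no normalization, and the deposited FPKM table holds the authors' FPKM values for 9265 genes, 4 of the 10 described genes among them. The submitters' processing notes name FastQC 0.19.7, HISAT2, StringTie 2.2.1 and the builds GRCm39 and mm10, without roles. Of the counting program nothing is said there. No gene coordinates are printed for the counts, and the promoter coordinates belong to the RefSeq table alone.

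Groups follow the sample titles. Counts were tested with edgeR 4.0.16 (quasi-likelihood F test, TMM factors, filterByExpr with a minimum count of 10, R 4.3.3), with p-values adjusted by Benjamini-Hochberg over all 12358 tested genes, without a replicate block. CPM is on the TMM scale. SE was derived from the log2 fold change and F. Deviations and profile distances used log2 CPM with a prior count of 2. The prior was not scaled to depth, so genes with few counts read lower in the deeper SA 4. Adm, with 0 counts in all 8 libraries, had -0.774 in SA 4 and -0.0352 to 0.215 in the other libraries. Alternatives were DESeq2 1.42.0, limma-voom (limma 3.58.1), other factors and filters, limma on FPKM (log2 with a pseudocount of 1 or 0.1, genes at 0.5 FPKM in 4 libraries, or unfiltered), a replicate block and the omission of each library. DESeq2 was fitted to all genes with any counts, without filterByExpr. The labels do not say that the 8 samples are 8 animals, and p-values then reflect only how these samples vary, which may be technical.

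The genes and lists were chosen with earlier results of these data known. All 10 genes are named, plus up to 4 genes with the smallest p of each other list and the 5 nearest profiles of Lox and of Serpinh1. Genes of the portal fibroblast, bile duct, endothelial, macrophage and hepatocyte lists are given by counts and sums. Alb is named to check the tissue label. Gas6, for its part in a sum, and the bile duct, macrophage and hepatocyte markers with an unadjusted p under 0.05 were chosen after their values were seen. Some genes that this rule would name are not reported here.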

Additional observations from a re-analysis of the deposited data

Results flagged for a closer look

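In 8 of 106 sets of 4 libraries (1 gene in 1 group), 1 library lay far from the other 3, where chance gives about 1 in 20 sets. Col3a1 reached 55.3 CPM in SA 1, while SA 2 to SA 4 had 36.5 to 38.9 CPM. Fbln2 reached 10.2 CPM in Ctrl 1, while Ctrl 2 to Ctrl 4 had 4.24 to 5.03 CPM. Kdelr3 reached 2.12 CPM in Ctrl 1, while Ctrl 2 to Ctrl 4 had 1.21 to 1.24 CPM. Among cell type markers, Krt19 had 4.37 CPM in Ctrl 1 (1.15 to 1.66 CPM in Ctrl 2 to Ctrl 4) and Trem2 13.2 CPM in Ctrl 1 (1.59 to 3.44 CPM in Ctrl 2 to Ctrl 4). In SA 1, Spp1 had 56.9 CPM (29.3 to 33.5 CPM in SA 2 to SA 4) and Timd4 8.92 CPM (16.7 to 18.2 CPM in SA 2 to SA 4). Lyve1, an endothelial marker, had 10.8 CPM in SA 4 (14.6 to 15.2 CPM in SA 1 to SA 3). None of the 10 collagen-processing genes had such a library in either group by this cutoff. It does not show that no library weighed on them, since Loxl1 went from -1.26 to -0.611 without Ctrl 1.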

How the results depend on the processing

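The number of the 10 genes called lower was 0 in the edgeR fit, 2 with DESeq2 (Lox and Serpinh1) and 0 to 1 when 1 library was left out (Lox without SA 1). None was called higher under any alternative. Among the other collagen enzymes DESeq2 called 1 lower (Adamts2). Over all genes, edgeR called 1 higher and 1 lower. DESeq2 called 23 higher and 37 lower, no filter gave 3 and 5, the 3 FPKM fits gave 0 and 3, limma-voom gave 2 lower, the replicate block 5 lower, and leaving out 1 library gave 0 to 13 higher and 0 to 6 lower. The median of the 10 genes was -0.78, and -0.927 to -0.379 when 1 library was left out, the last without Ctrl 1. With FPKM, where 4 genes are listed, it was -0.189 with a pseudocount of 1, with or without the filter, and -0.21 with 0.1. The number with an unadjusted p under 0.05, examined after seeing the data, was 4 to 6 when 1 library was left out (2.31% to 4.99% of all genes) and 0 with the FPKM fits, where none of the 5 genes is listed. The number with every SA library below every Ctrl library was 3 to 5 (2.02% to 4.12% of all genes), also examined afterwards, with 5 without Ctrl 2. Both shares of all genes were highest without Ctrl 4. The sign turned for Loxl3 (0.00947 with the block, 0.154 without SA 4, 0.157 without Ctrl 1, range -0.2 to 0.157 over the omissions), Plod1 (-0.0318 without Ctrl 4, range to 0.184), P4ha1 (0.00824 without SA 1, 0.101 without Ctrl 3, range -0.27 to 0.101), and with FPKM for Ndrg1 (0.0977 with a pseudocount of 1, 0.114 with 0.1) and Hspa5 (0.00547 and 0.00734); the cause was not tested. Deviations of same-numbered SA and Ctrl libraries had correlations across genes of -0.0188, -0.023, 0.221 and -0.214, with 1 of 4 over 0.1. The labels do not say what equal numbers share, and 4 correlations cannot decide whether the numbers pair the samples. With the replicate block the number of the 10 genes called stayed at 0, while over all genes 5 were called lower in place of 1. Lox left the test under the filter of 1 CPM in 4 libraries. Its depth of 1 to 6 counts in SA limits how precisely its fold change is known.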
